A study of Arabidopsis thaliana with 12 samples.

Results

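The array carried probes for 3 Arabidopsis thaliana genes related to ubiquitin ligases whose transcripts had read higher in the psao mutant: AT5G40140, annotated as a U-box protein with ARM repeats, AT1G49850, a RING finger protein, and AT2G23160, an F-box protein. They were chosen by these 3 loci, by protein class and by their higher signal in psao, among 692 probes that the platform annotation pairs with exactly 1 gene, of 3439 probes in all. Each gene had 1 such probe, and 0 probes paired with several genes held any of them. The choice used the psao and WT comparison itself, so the differences of these 3 genes are given as a description, with no test. The gene table used here lists the 3 loci without a protein description, so the protein classes are those of the selection.

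Transcript levels in total RNA had been measured on 6 arrays of wild type (WT) and 6 arrays of the psao mutant, all of ecotype Columbia 0. In the mutant the photosystem I subunit PSI-O is missing, and the comparison asks which transcripts differ without it. The labels give no tissue, age, growth condition or allele, and do not say which arrays are separate plants and which are repeats. The p-values and SEs here therefore measure array-to-array spread only, some of it possibly technical. PSAO itself has no 1-gene probe here, so the genotype labels could not be checked by its transcript. Where RNA comes from whole tissue, fewer cells of a type and less RNA per cell cannot be told apart.

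Ubiquitin ligases choose the proteins that a cell tags with ubiquitin, often for breakdown by the proteasome. A RING finger and a U-box each bind a ubiquitin-conjugating enzyme, and the U-box has a RING-like fold held together without zinc. ARM repeats in plant U-box proteins commonly bind other proteins. An F-box protein is the interchangeable part of an SCF complex: its F-box docks on the SKP1 adaptor while the rest of the protein binds the substrate. Plants have large families of all of these, with roles in hormone, light and stress signalling. Such roles come from other family members and are not results for these 3 genes.

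Deposited intensities run on a scale of 0 to 100, where 100 is the strongest probe on that array. Array medians ranged from 0.0970 to 0.195 in WT and from 0.198 to 0.273 in psao, so a typical probe also read higher in psao before further scaling. The share of exact zeros was 14.5% on WT array 1, 15.1% on WT array 2 and 4.22% to 7.33% elsewhere. Within a genotype, array 1 resembles 2, array 3 resembles 4 and array 5 resembles 6. These sets, which the labels do not mention, are referred to as couples. SEs and p-values of the main fit count each array as separate, and can be too small where arrays of a couple are alike. Quantile-normalized values are in log2 units and are the scale of all differences below unless another is named. How bright a probe is depends on the probe as well as the RNA, so levels are compared across arrays within a gene and not between genes.

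AT5G40140, the U-box and ARM repeat protein, had deposited intensities of 0.0275 at the lowest, 0.0951 at the median and 0.147 at the highest over the 6 WT arrays. In psao the lowest was 0.413, the median 0.612 and the highest 1.10. Every psao array lay above every WT array, as for 17.3% of the 692 1-gene probes. Within psao, arrays 1 and 2 read highest, at 0.838 and 1.10. The WT arrays split differently: array 1 was the dimmest at 0.0275, while array 2 of the same couple stood at 0.122, close to arrays 5 and 6 at 0.134 and 0.147. After normalization the level averaged -3.27 ± 0.74 over the WT arrays and -0.70 ± 0.43 over the psao arrays (SD, n = 6 each). The difference of 2.57 ± 0.34 log2 units (SE) is 5.92-fold, the rank 7 rise among 628 tested 1-gene probes. The median difference of those probes was 0.03, and 16.6% of them had a rise above 1. In deposited intensity psao array 1 was 30.4-fold brighter than WT array 1, and for numbers 2 to 6 the ratio was 3.77-fold to 10.3-fold. The labels do not say that equal numbers form a pair. The 30.4-fold ratio rests on the dimmest WT array, and the medians of arrays numbered 1 were 0.0995 in WT and 0.272 in psao. After normalization the differences were 3.77 log2 units for number 1 and 1.70 to 3.16 for numbers 2 to 6.

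AT1G49850, the RING finger protein, varied least of the 3. Its deposited intensity in WT was 0.257 at the lowest, 0.304 at the median and 0.555 at the highest. In psao it was 1.59, 1.64 and 1.88. The groups were far apart, and the 6 psao arrays were close to each other. WT arrays 5 and 6, at 0.555 and 0.545, were the high ones, and the same numbers were also highest in psao, both at 1.88. The normalized level averaged -1.35 ± 0.44 over WT and 0.68 ± 0.14 over psao (SD, n = 6 each), a difference of 2.03 ± 0.21 log2 units (SE), or 4.09-fold. In psao the SD was small for a probe of this brightness: of 190 probes within 0.5 log2 units of its psao level, 12.6% had an SD as small, and their median SD was 0.29. In WT its SD was near the median of such probes, 0.40. Arrays within a couple were nearly alike for this gene, 0.00 to 0.02 log2 units apart in psao and 0.02 to 0.12 in WT. These SDs over 6 arrays thus rest on fewer distinct values. A choice by the psao and WT contrast can also favour genes with a small spread.

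AT2G23160, the F-box protein, had a dim probe. Its deposited intensity in WT was 0.00321 at the lowest, 0.0182 at the median and 0.0583 at the highest, and in psao it was 0.0980, 0.170 and 0.221. On this scale every psao array again lay above every WT array, as for 17.3% of the 692 1-gene probes. The WT arrays fell into 3 levels by couple: arrays 3 and 4 at 0.00321 and 0.00453, arrays 5 and 6 at 0.0174 and 0.0190, and arrays 1 and 2 at 0.0583 and 0.0385. The psao arrays were closer together, with arrays 5 and 6 the lowest at 0.0980 and 0.116. The normalized level was -5.83 ± 2.13 for WT and -3.03 ± 0.60 for psao (SD, n = 6 each). The difference of 2.80 ± 0.82 log2 units (SE), or 6.95-fold, ranked 3 among the 628 probes. On WT arrays 3 to 6 the probe was near the floor, at percentiles of 6.43 to 9.22 where 4.68% to 6.25% of probes read 0, so the size of this fold is uncertain. Its WT SD ranked 22 among them, where 1 is the widest, and 62 probes within 0.5 log2 units of its WT level had a median SD of 1.74.

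**Figure D1:**
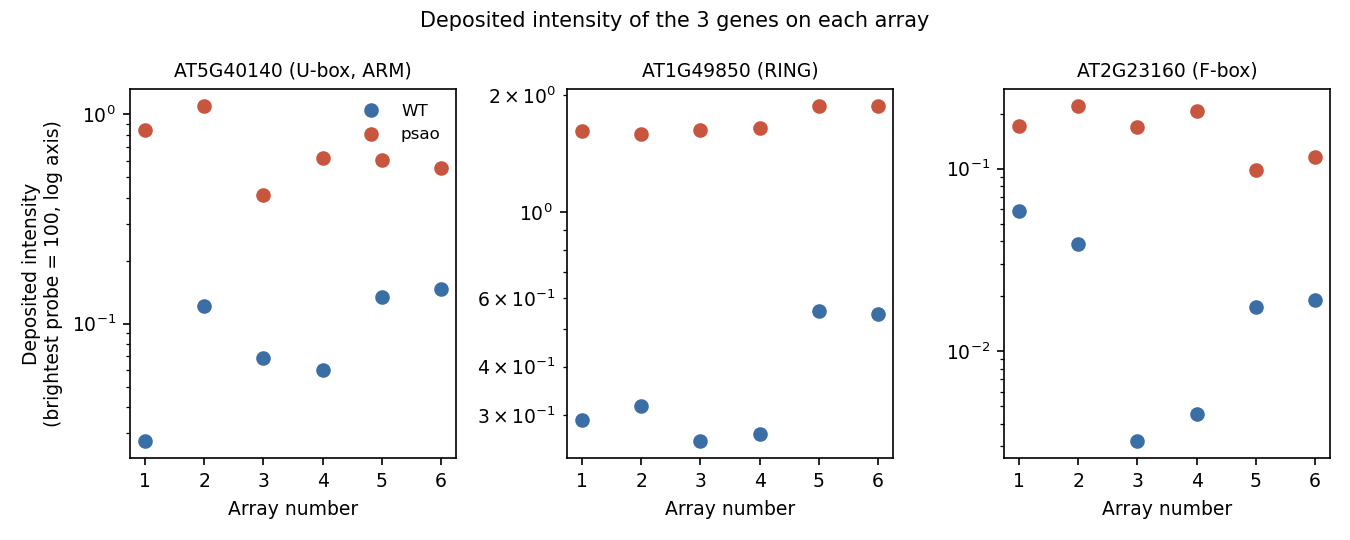
Deposited intensity of each gene (y axis, log scale, relative to the brightest probe at 100) on arrays 1 to 6 (x axis) of WT (blue) and psao (red), 1 point per array. All psao points lie above all WT points in each panel, as for 17.3% of the 692 1-gene probes. The WT points of AT2G23160 spread from 0.00321 to 0.0583.

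Whether the groups overlap depended on the scale for AT2G23160 alone of the 3. In deposited intensity every psao array lay above every WT array for all 3 genes, as for 17.3% of the 692 1-gene probes. After normalization this held for AT5G40140 and AT1G49850, as for 11.5% of the 628 tested 1-gene probes and 10.2% of all 3187 tested probes. For AT2G23160, 4 of the 6 psao arrays then lay above the highest WT array. These shares are background only, since the 3 genes were chosen for this contrast. They leave out probes with every psao array below every WT array.

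The position of a probe among all probes of the same array needs no scaling between arrays. AT5G40140 moved from a median percentile of 32.4 in WT (22.4 to 55.0) to 77.6 in psao (71.4 to 86.3). AT1G49850 moved from 73.4 (60.2 to 76.3) to 90.8 (90.6 to 92.1). For both genes every psao array lay above every WT array, as for 9.54% of 1-gene probes. AT2G23160 moved from a median of 8.51 (6.43 to 38.1) to 38.5 (20.5 to 51.8), with overlap. On array 1 it stood 3.90 percentile points lower in psao than in WT, although its deposited intensity there was 2.93-fold higher. These percentiles count zeros, which were 14.5% of probes on WT array 1 and 6.72% on psao array 1. The normalized difference for array number 1, with zeros left out, was 0.10 log2 units. The part of the zeros in the 3.90 points was not tested. Arrays 1 and 2 are also those whose medians differed most, 0.0995 and 0.0970 in WT against 0.272 and 0.273 in psao.

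**Figure D2:**
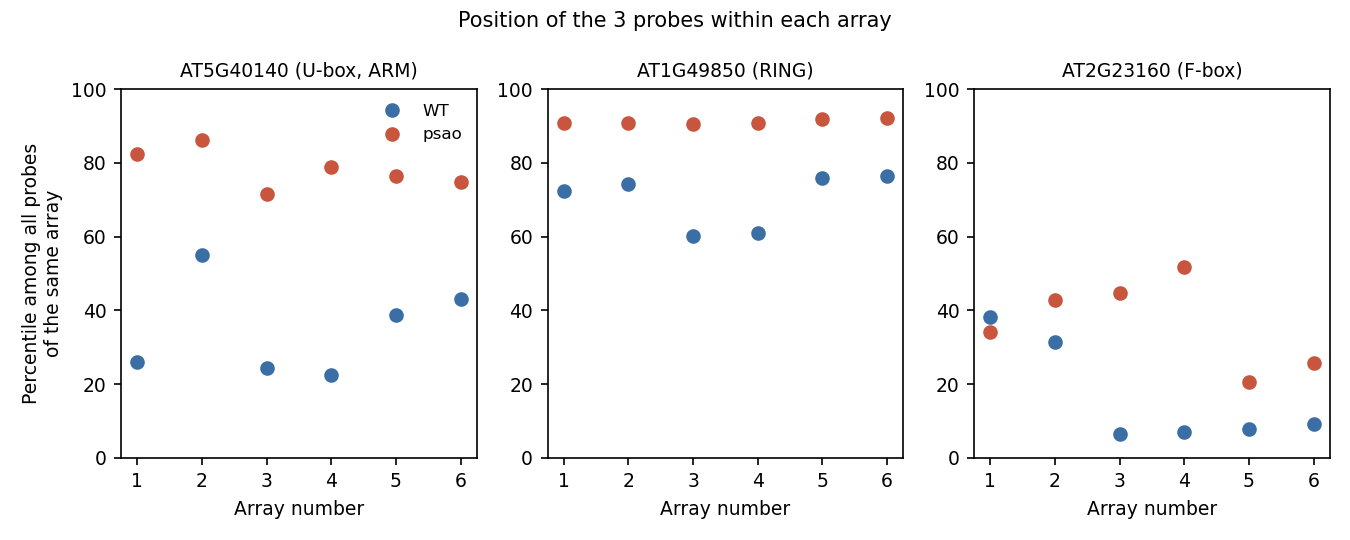
Percentile of each gene's probe among all 3439 probes of the same array (y axis) on arrays 1 to 6 (x axis) of WT (blue) and psao (red), 1 point per array. All psao points lie above all WT points for AT5G40140 and AT1G49850, as for 9.54% of 1-gene probes. Those of AT2G23160 cross on array 1, at 38.1 in WT and 34.2 in psao, with zeros counted in the percentiles.

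The size of the difference was steady over couples for the RING finger gene and uneven for the F-box gene. AT1G49850 differed by 1.89, 2.45 and 1.76 log2 units in arrays 1 and 2, 3 and 4, and 5 and 6. AT5G40140 differed by 3.05, 2.81 and 1.85 in the same order. Within the first couple its WT arrays were 1.83 log2 units apart, where the median 1-gene probe was 0.40 apart. AT2G23160 differed by 0.55, 5.76 and 2.08, and the unevenness came from WT: couple means ran from -8.21 to -3.50 in WT and from -3.70 to -2.45 in psao. Before scaling, the log2 median of psao lay 1.14, 0.12 and 0.33 above that of WT in the 3 couples, so the couple with the smallest difference of AT2G23160 is the one whose arrays needed the largest rescaling. The part of that rescaling in the result was not tested. With an offset of 0.05 added before the log, which shrinks differences of dim probes, the difference of AT2G23160 was 1.03.

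The fixed list of other genes of the pathway matched no 1-gene probe. It joined 34 loci of known ligases, SCF subunits, ubiquitin enzymes and proteasome subunits with gene names matching terms such as F-box, U-box, RING, ubiquitin and proteasome, and 319 RefSeq genes fell under it. Of these, 0 had a 1-gene probe. Only symbols and synonyms could be searched for the terms, so measured genes of the pathway whose names do not tell their class were missed. From the symbols of the measured genes, 3 more ligase-related genes could be recognized. They were added by symbol, after earlier results of these data were known. XERICO is a small RING-H2 protein known for raising abscisic acid levels when overexpressed. The other 2 are F-box proteins: FBL17, which acts on inhibitors of cyclin-dependent kinases, and SAP (STERILE APETALA), a regulator of flower and organ growth. Of the 3 added genes, 1 rose in limma, and 2 did not pass. Among all tested 1-gene probes, 15.9% were called higher in psao and 28.0% in either direction, at an adjusted p under 0.05, with 29.8% over all tested probes, and 3 genes are too few to read against those shares.

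FBL17 stood at -4.52 ± 0.94 over 5 WT arrays and at -3.06 ± 0.74 over 6 psao arrays (SD), and rose by 1.47 ± 0.47 log2 units (SE), or 2.77-fold, with a limma adjusted p of 0.0344 and all 6 psao arrays above the WT mean. Its deposited intensity was 0 on WT array 4, which is left out of the fit, and up to 0.0719 on the other WT arrays. In psao it was 0.104 at the lowest, 0.151 at the median and 0.243 at the highest. On this scale every psao array lay above every WT array, as for 17.3% of 1-gene probes. After normalization the groups overlapped, with 5 of the 6 psao arrays above the highest WT array. The call was not stable: it passed in 12 of 20 alternatives, with limma adjusted p from 0.00577 to 0.292, and with couples averaged the adjusted p was 0.121. The rise was 0.87 with an offset that keeps the zero and 2.28 with deposited values. The call was lost without WT replicate 1, 3 or 5 and without psao replicate 3 or 4, at limma adjusted p of 0.0649 to 0.0671. By couple it differed by 1.10, 2.59 and 0.82, and the second value rests on WT array 3 alone. As in AT2G23160, arrays 3 and 4 gave the largest difference.

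XERICO averaged 1.38 ± 0.60 over WT and 2.0 ± 0.13 over psao (SD, n = 6 each), a difference of 0.62 ± 0.25 log2 units (SE, limma adjusted p = 0.0842) that did not pass. It was 1.38 in arrays 1 and 2 and 0.27 and 0.20 in the other couples, since WT arrays 1 and 2, deposited at 1.31 and 1.49, lay below the other 4 at 2.71 to 3.86. With arrays 3 to 6 alone the difference was 0.25, and with median centring 0.14. SAP averaged -3.49 ± 0.82 over WT and -3.43 ± 0.33 over psao (SD, n = 6 each), a difference of 0.06 ± 0.35 (SE, limma adjusted p = 0.908), and its direction turned in 5 of 20 alternatives. Its 6 psao arrays all lay inside the range of the WT arrays after normalization. Whether the 3 chosen genes differ from these 3 in their response was not tested, because the choice fixes that direction.

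**Figure D3:**
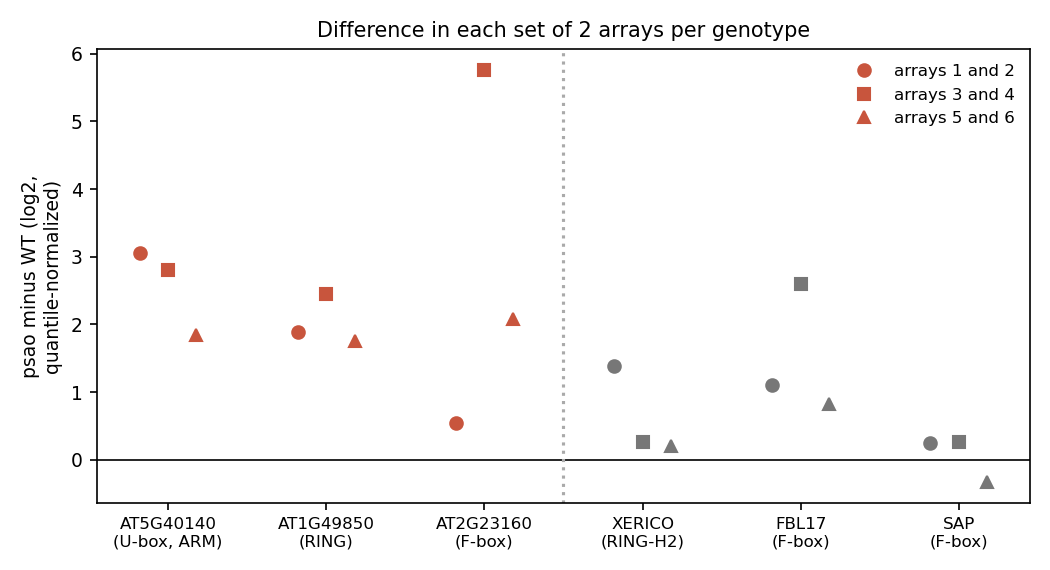
Difference between psao and WT (y axis, log2 units after quantile normalization) in each couple of arrays for the 3 chosen genes (red) and 3 other ligase-related genes (grey), with 1 symbol per couple. AT1G49850 spans 1.76 to 2.45 and AT2G23160 spans 0.55 to 5.76. The FBL17 value of arrays 3 and 4 rests on 1 WT array.

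**Figure D4:**
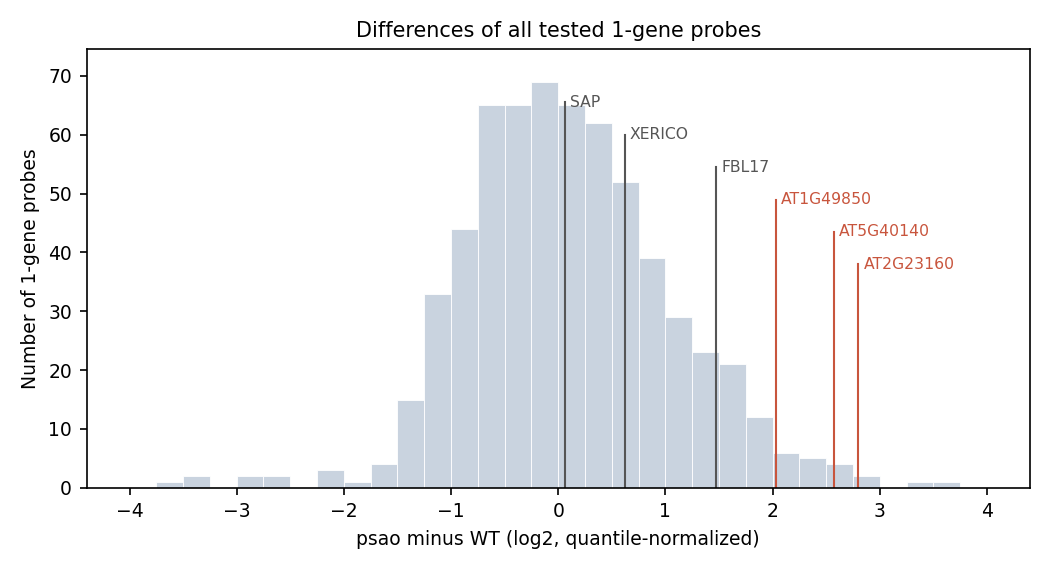
Histogram of the difference between psao and WT (x axis, log2 units after quantile normalization) over the 628 tested 1-gene probes (y axis, number of probes), with lines at the 3 chosen genes (red) and at XERICO, FBL17 and SAP (grey). The chosen genes lie in the right tail, at 2.03, 2.57 and 2.80, where the choice put them.

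Profiles over the arrays were set side by side as the root mean square distance between 2 genes, each centred on its own WT mean, over 611 1-gene probes with at least 10 shared arrays. These distances describe arrays that share couples and a genotype step, and carry no test. The 3 chosen genes were picked by that step, so nearness among them is partly built in. The gene nearest to AT5G40140 was AT5G46560 (distance 0.47 log2 units over 11 arrays), followed by AT1G72020 (0.58 over 12 arrays). AT1G72020 was also nearest to AT1G49850, at 0.30, followed by AT5G42680 at 0.37. The U-box and RING genes lay 0.61 apart, which made AT1G49850 rank 4 for AT5G40140, and AT5G40140 rank 18 for AT1G49850. Nothing lay close to AT2G23160: its nearest genes were AT5G19050 at 1.18 and AT3G19120 at 1.21, and AT5G40140 and AT1G49850 followed at ranks 5 and 6, at 1.41 and 1.42. With median centring the first in rank was the same gene for each of the 3, at 0.49, 0.33 and 1.09.

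With each genotype centred on its own mean, the genotype step is removed and only variation among arrays of a genotype remains. The nearest genes were then others for AT5G40140 and AT1G49850. For AT5G40140 they were AT2G32470 (0.32 over 10 arrays) and AT5G02850 (0.36 over 11 arrays). For AT1G49850 they were chr31, named for chromatin remodeling (0.15), and AT3G56010 (0.20). These genes differed between psao and WT by 1.18, 0.33, 0.23 and -0.03. For AT2G23160 they were AT5G19050 again (0.86) and AT5G53930 (0.89), with differences of 1.65 and -0.68. Among the 611 probes AT1G49850 ranked 26 for AT5G40140, AT5G40140 ranked 189 for AT1G49850, and AT2G23160 ranked 573 for both. Seen from AT2G23160, AT1G49850 ranked 101 and AT5G40140 ranked 168. The distance grows with a gene's spread, and the WT SD of AT2G23160 was 2.13, so these ranks do not compare the pattern alone. In WT the couple mean was lowest in arrays 3 and 4 for all 3 genes, whereas the highest couple was 5 and 6 for AT5G40140 and AT1G49850 and 1 and 2 for AT2G23160.

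The 3 genes lie on different chromosomes, and the 1-gene probes nearest to them in gene order, within 20 protein-coding genes of the RefSeq assembly TAIR10.1, were looked at after the values were seen. Around AT5G40140 there were 4 such genes, of which 2 rose in limma, where 15.9% of all tested 1-gene probes were called higher. So few genes do not show a cluster. AT5G40030, 9 genes away, rose by 3.27 ± 0.62 log2 units (SE, limma adjusted p = 0.00237), and AT5G39980, 14 genes away, by 2.08 ± 0.50 (limma adjusted p = 0.00825). With couples averaged neither passed, at 0.0870 for AT5G40030 and 0.147 for AT5G39980, the highest adjusted p of their alternatives, which began at 0.000551 and 0.00430. AT5G40030 was dim in WT, at -5.79 ± 1.44 (SD, n = 6), so the size of its rise is uncertain. The offset gave AT5G40030 a rise of 1.52, and the rise of AT5G39980 was 1.16 with arrays 3 to 6 alone, and both still passed. The genes between them and AT5G40140 did not pass: AT5G40070, 5 genes away, differed by 0.92 ± 0.45 (limma adjusted p = 0.132, alternatives 0.0461 to 0.510, passing unscaled at 1.76) and AT5G40050, 7 genes away, differed by 0.04 ± 0.34 (limma adjusted p = 0.941). Around AT1G49850, AT1G49870 differed by 0.07 and AT1G50020 by 0.10, neither passing, and AT1G50000 fell by 2.81 ± 0.96 (limma adjusted p = 0.0438), a call kept in 4 of 20 alternatives (0.0120 to 0.318). Its change was -1.27 with the offset and -2.07 without psao replicate 6. It was dim and spread widely in psao, at -5.42 ± 2.53 (SD, n = 6), so the size of its fall is uncertain. The only such gene near AT2G23160, AT2G23070, fell by 0.69 ± 0.24 (limma adjusted p = 0.0466). Its call was lost with the array number as a block (limma adjusted p = 0.0575) and kept in 4 of 21 alternatives (0.0163 to 0.707), and its change was -0.11 unscaled and -0.37 with arrays 3 to 6 alone. Of the 8 measured genes around the chosen ones, 2 were called higher and 2 lower, against 28.0% of 1-gene probes called in either direction, and with couples averaged none of these 4 passed (limma adjusted p from 0.0870 to 0.266).

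Probes with numbers next to those of the 3 genes are described here because they may lie close by on the array, although the sources used here do not state the layout. Over all tested probes the median difference was -0.04, with 14.8% called higher and 15% lower. Of 15 tested probes within 10 numbers of AT5G40140, 4 were called higher and 1 lower in psao, with a median difference of 0.82 and a range of -1.18 to 1.53. For AT1G49850 the 15 probes had a median of -0.24, with 2 called higher and 2 lower, and ranged from -1.49 to 1.69. For AT2G23160 the median was 0.68, with 4 called higher and 2 lower, and the range was -0.83 to 5.40. The part of array position in the results was not tested.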

How the data were processed

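The deposited intensity values reach 100 at the top of every array. What the authors did before, labelling and background treatment included, is not given in the sources used here. Sample groups and array numbers came from sample titles. Zeros were set missing, log2 values were quantile normalized over all probes (limma 3.58.1, R 4.3.3), and probes with at least 4 values per group were kept, 3187 of 3439. Differences, psao minus WT, were fitted by lmFit and eBayes in limma, two-sided, with Benjamini-Hochberg adjustment over all tested probes and a threshold of 0.05. The fit was tested on simulated data. How often it calls unchanged probes where arrays of a couple are alike was not tested. Members and lists were chosen with earlier results of these data known.

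Of 692 1-gene probes, 690 matched the RefSeq table of TAIR10.1, whose symbols and synonyms were searched because it holds no descriptions. Always named were the 3 members, called genes of the list, and per member the 2 nearest profiles under each centring. XERICO, FBL17, SAP and the gene neighbours were added later. Deviations from group means of same-numbered WT and psao arrays correlated with r from 0.144 to 0.239 over probes, so a fit with the number as a block was set beside the reported fit, which has none. Genome positions are not printed, since no build is named for the array. The number of arrays limits the precision of the results.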

Additional observations from a re-analysis of the deposited data

How the results depend on the processing

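With quantile normalization 949 of 3187 probes passed, 472 higher and 477 lower in psao. The count was 60 with couples averaged (51 higher, 9 lower), 330 with the couple as random block (statmod 1.5.0) and 466 at an adjusted p under 0.01. It was 1090 with the array number as a replicate block, which changed no call among the genes named with a test (FBL17 1.27, limma adjusted p = 0.0484) except AT2G23070, and 786 to 939 leaving out 1 array. Without scaling, the median probe differed by 0.43 log2 units and 77.4% of calls were higher, against 49.7%. Relative to that shift stand the deposited differences of 3.02 for AT5G40140, 2.27 for AT1G49850 and 3.40 for AT2G23160. Leaving out 1 array gave 2.35 to 2.70 for AT5G40140, 1.93 to 2.12 for AT1G49850 and 2.25 to 3.28 for AT2G23160. All alternatives kept the 3 differences positive. The choice of genes higher in psao makes this likely in advance, so it is no support for the rise. Of these differences, 1 moved by more than the SD between arrays, that of AT2G23160 with the offset, at 1.03. SAP stood at -0.11 with the offset and -0.04 with arrays 3 to 6 alone, and at -0.21 to 0.25 leaving out 1 array. The gene neighbours AT5G40050, AT1G49870 and AT1G50020 also changed sign leaving out 1 array, with -0.14 to 0.24, -0.21 to 0.25 and -0.08 to 0.33. The filter on dim probes removed AT2G23160, FBL17, SAP and the gene neighbours AT5G40030, AT5G40050, AT5G40070 and AT1G50000. The ubiquitin list, searched by locus, symbol and synonym only, matched no 1-gene probe, so its planned counts could not be made. The cause of these shifts was not tested. No sample of the 12 sets of 6 arrays examined stood far from the others by Dixon's criterion. Because arrays of a couple resemble each other, a couple that deviates together can go unseen, so no conclusion is drawn from this.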
